A study of Homo sapiens with 60 samples.

Results

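The 43 genes described here are interferon-stimulated genes, chosen by name from the common core of the type I interferon response, out of 60675 gene IDs in an expected-count table of HT29 cells. The rule used no measured value, though earlier results of these data were known when the genes were listed. HT29 is an established human colorectal adenocarcinoma line. Cells were kept for 24 h with 70% ethanol extracts of 6 single herbs or of 2 herbal formulas, or with vehicle, and 60 libraries were sequenced. Coptidis Rhizoma was given at 12.8, 64 and 320 µg/mL and Bupleuri Radix at 12.4, 62 and 310 µg/mL. Zizyphi Fructus, Citri Unshius Pericarpium, Cimicifugae Rhizoma, Aconiti Lateralis Radix Preparata and the formulas Yijung-tang and Banhasasim-tang were given at 20, 100 and 500 µg/mL. These doses are called low, medium and high. Per the series design, an extract whose IC20, the concentration that inhibits by 20%, lay below 500 µg/mL was given at that IC20 and at dilutions of it. The high doses of Coptidis and Bupleuri are thus their IC20, and those of the other extracts are not. Each dose had 2 libraries for Coptidis, Zizyphi and Yijung-tang, 3 for Citri, Cimicifugae, Bupleuri and Aconiti and 1 for Banhasasim-tang, and vehicle had 3. The vehicle was DMSO, at 0.1% in the sample labels and 2% in the series design.

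An interferon binds a receptor whose JAK kinases phosphorylate STAT proteins. STAT2 and IRF9 are subunits of ISGF3, a transcription factor that binds the interferon-stimulated response element, or ISRE. Its targets sense viral RNA, block viral entry and replication, attach the ubiquitin-like protein ISG15 to other proteins, and also damp the signal. In gut epithelium type I and type III interferons drive this program, and epithelial tumour lines often hold a low basal level of it.

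All 43 genes reached the minimum for testing, 0.5 CPM (counts adjusted for the depth of each library) in 3 libraries, and did so also without the high-dose Coptidis libraries. Depth ran from 18.1 to 36.7 M counts per library, and a floor of 3 counts corresponds to 0.082 to 0.166 CPM. The sample titles name the same batch, D, for all 60 libraries. Sets were read here from the first part of each sample's code. By that code the vehicle libraries form a set of their own, and Coptidis and Zizyphi share a set. Citri and Cimicifugae share another, Bupleuri and Aconiti another, and the formulas the last. Extract against vehicle and set against set cannot be told apart, and high against low dose compares libraries of the same set. The pair of Zizyphi medium libraries differed from each other by a median absolute log2 value of 0.489, against at most 0.148 between any other library and the rest of its group. Replicate 3 of that pair stood apart, with 2.96% of its counts from mitochondrial ribosomal RNA and 46.8 CPM of the immune and stromal markers described next. CD68 alone made up 38.3 of these 46.8 CPM, and PTPRC reached at most 0.0896 CPM in any library. The labels do not state whether replicate libraries came from separate cultures, so p-values measure the spread between libraries, which may be technical. The 9 epithelial markers summed to 8330 to 13900 CPM in all libraries. The largest were KRT8 at 3310 to 7720 CPM and KRT18 at 2410 to 4110 CPM, so the sum mainly follows these keratins. EPCAM ran from 472 to 608 CPM, and CDX1 and CDX2 reached 1.7 and 9.86 CPM. The sum lay at 8330 to 8340 CPM at high dose of Coptidis, against 10600 CPM at its low dose, and 11900 to 12500 CPM at high dose of Bupleuri, against 10600 to 10800 CPM at its low dose. Markers of immune and stromal cells, 12 genes, summed to 10.3 to 12.3 CPM in high-dose Coptidis, against 15.8 to 16 CPM at its low dose, and to 13.7 to 14.8 CPM in high-dose Bupleuri, against 12.7 to 13.9 CPM at its low dose. Of these 12 genes PTPRC, CD3E, CLEC4C and COL1A2 had at most 2 counts in any library and PDGFRB and VWF at most 5, whereas CD68, CD14, ITGAM, COL1A1 and PECAM1 reached 488, 125, 62, 59 and 58 counts. The part of these markers in the results was not tested.

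RefSeq promoter windows, from 250 bases before to 50 after each start, were found for 36 of the 43 genes. The core of the ISRE, read as GAAA, any 2 bases and GAAA again, stood on either strand in a window of 24 of these 36 genes (66.7%), against 4.38% of all 27305 genes with a window. The letters TTCNNNGAA, the palindrome of a GAS element, which STAT dimers bind, stood in 10 of the 36 (27.8%), against 9.38% of all genes, and overlapping matches were counted separately. No window was found for IFIT2, IFITM2, IRF7, MX2, OAS2, OASL and USP18. From build GRCh38.p14 and on the strand of the gene come the stretches around the match in the gene of largest rise with Coptidis in each role group that held one, with capitals on each match on either strand, and the 250 bases before the start of SAMD9L, whose rise was the largest and whose window held no exact match. No signalling gene with a window held one. The stretches are chr2:162318685-162318868 on the minus strand for IFIH1, chr21:41431829-41431888 on the plus strand for MX1, chr15:88638922-88638981 on the plus strand for ISG20, chr4:88456969-88457079 on the plus strand for HERC5, chr1:78620259-78620409 on the plus strand for IFI44L and chr7:93148386-93148635 on the minus strand for SAMD9L.
IFIH1: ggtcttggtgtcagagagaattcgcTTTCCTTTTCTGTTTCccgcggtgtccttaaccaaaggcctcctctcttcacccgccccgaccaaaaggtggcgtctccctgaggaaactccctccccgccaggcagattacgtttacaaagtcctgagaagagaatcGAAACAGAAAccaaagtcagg
MX1: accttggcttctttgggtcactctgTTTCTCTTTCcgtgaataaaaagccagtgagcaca
ISG20: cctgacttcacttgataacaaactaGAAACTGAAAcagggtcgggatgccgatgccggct
HERC5: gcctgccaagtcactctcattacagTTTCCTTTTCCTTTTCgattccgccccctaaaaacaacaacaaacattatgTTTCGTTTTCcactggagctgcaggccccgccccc
IFI44L: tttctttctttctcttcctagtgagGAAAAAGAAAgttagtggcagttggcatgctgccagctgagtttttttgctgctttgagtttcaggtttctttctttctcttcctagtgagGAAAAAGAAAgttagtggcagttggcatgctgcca
SAMD9L: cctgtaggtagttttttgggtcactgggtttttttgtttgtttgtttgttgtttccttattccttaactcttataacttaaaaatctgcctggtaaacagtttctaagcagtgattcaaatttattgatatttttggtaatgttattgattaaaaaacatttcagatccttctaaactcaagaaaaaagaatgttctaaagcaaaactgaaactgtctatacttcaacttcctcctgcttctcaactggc

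These stretches hold 3 matches in IFIH1 and in HERC5, 2 in IFI44L and 1 in MX1 and in ISG20, in either orientation. The 24 genes with an ISRE match had a median log2 change of 1.56 from low to high dose of Coptidis, ranging from 0.29 to 3.06, and the 12 genes without any a median of 1.62, ranging from 0.67 to 4.08. With Bupleuri the medians were -0.34 and -0.40, and 9 of the 24 and 6 of the 12 passed the threshold as lower. A match is a string of letters and was not shown to bind a factor.

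At the high dose of Coptidis Rhizoma 42 of the 43 genes were higher than at its low dose, and 35 rose at least 2-fold. The exception was IFITM2. The median log2 change of the 43 genes was 1.74, against -0.02 over all 16022 tested genes, and the genes ranged from 0.13 to 4.08. In this comparison 56.2% of all tested genes passed the threshold, an adjusted p of 0.05 in edgeR's quasi-likelihood test, 27.8% as higher and 28.4% as lower, and 6.72% were past it and at least 2-fold higher. In all 43 genes both high-dose libraries lay above both low-dose libraries, as in 40.1% of all tested genes. The share of counts from mitochondrial ribosomal RNA was 1.07% to 1.15% in vehicle, 10.5% and 9.79% at low, 6.44% and 6.26% at medium and 1.64% and 1.56% at high dose, so the low- and medium-dose libraries are those that stood apart from vehicle. With both of its genes, MT-RNR1 and MT-RNR2, left out before scaling, the count was again 42 with a median of 1.75. With library size alone as the scale the median over all tested genes moved to 0.11 and that of the 43 to 1.87. In bulk RNA, more responding cells and more RNA per cell cannot be told apart.

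**Figure D1:**
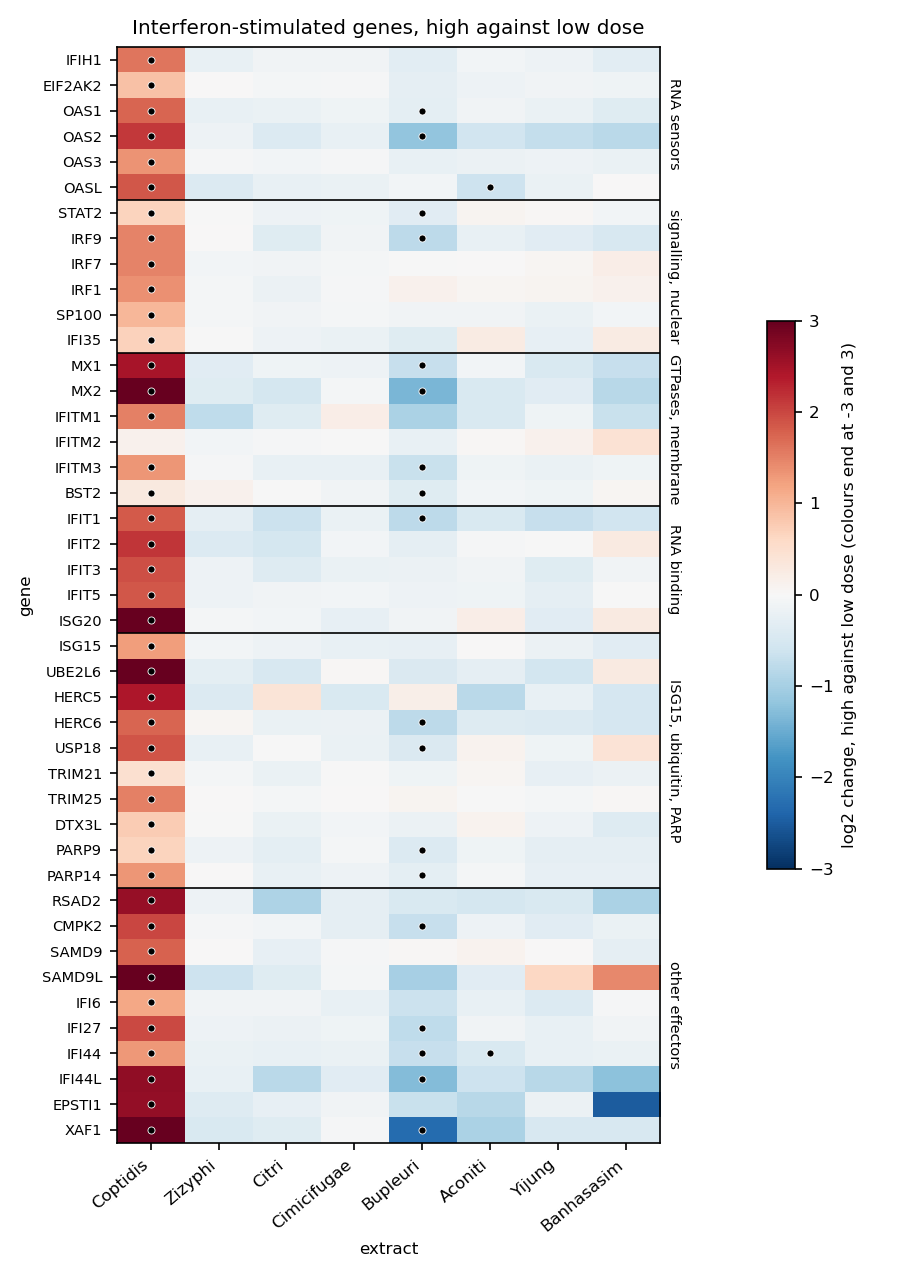
Log2 change from low to high dose for each of the 43 genes (rows, grouped by role) and each extract (columns), with red for higher and blue for lower at the high dose and colours ending at -3 and 3. A dot marks an adjusted p under 0.05 in edgeR. The Coptidis column is red in every row with 42 dots, Bupleuri is mostly blue with 18 dots, and the only other dots are OASL and IFI44 in Aconiti.

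Among the 6 sensors of double-stranded RNA all rose, with a median log2 change of 1.68. OAS2, which makes the second messenger 2-5A that switches on RNase L, had 6.67, 4.34 and 6.69 CPM in vehicle, 8.31 and 7.19 CPM at low, 5.78 and 4.94 CPM at medium and 37.0 and 30.5 CPM at high dose. Only the high-dose libraries left the range of the others, and the log2 change against low dose was 2.13 ± 0.20 (SE, adjusted p = 3.6e-12 in edgeR). OASL, a relative without that enzyme activity that strengthens RIG-I signalling, had 25.1 and 24.6 CPM at high dose, against 6.85 and 6.72 CPM at low dose. Its log2 change was 1.87 ± 0.11 (adjusted p = 5.5e-18 in edgeR). OAS1 followed at 1.75 ± 0.11, IFIH1, which encodes the RNA sensor MDA5, at 1.60 ± 0.12 and OAS3 at 1.34 ± 0.10. The smallest rise was that of EIF2AK2, which encodes the kinase PKR that halts translation, at 0.87 ± 0.13.

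The 6 genes of signalling and of the nucleus rose by a median of 1.19. IRF9, the DNA-binding subunit of ISGF3, had 17.6, 13.1 and 15.7 CPM in vehicle, 20.8 and 15.5 CPM at low, 15.1 and 16.4 CPM at medium and 51.1 and 50.7 CPM at high dose. Its high-dose libraries lay above all others, with a log2 change of 1.49 ± 0.14 (adjusted p = 5.6e-12 in edgeR). IRF7, which drives the interferon-alpha genes, had 76.1 and 77.2 CPM at high dose, against 30.4 and 24.8 CPM at low dose, and a log2 change of 1.48 ± 0.14. IRF1, a factor induced by interferon-gamma, changed by 1.37 ± 0.08. SP100, a nuclear body protein, changed by 1.00 ± 0.07, and the other genes, IFI35 at 0.70 ± 0.17 and STAT2 at 0.67 ± 0.09, changed less than 2-fold.

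Of the 6 GTPases and membrane proteins 5 rose. MX1, a dynamin-like GTPase that traps viral nucleoproteins, had 9.34, 8.44 and 10.2 CPM in vehicle, 12.0 and 10.0 CPM at low, 8.65 and 9.71 CPM at medium and 64.9 and 57.0 CPM at high dose. The low- and medium-dose libraries lay near vehicle, and the log2 change against low dose was 2.47 ± 0.14 (adjusted p = 1.3e-18 in edgeR). MX2, its relative at the nuclear envelope, had 16.4 and 13.2 CPM at high dose, against 1.69 and 1.64 CPM at low dose, a change of 3.15 ± 0.26.

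The IFITM proteins sit in membranes and block the fusion of viruses. IFITM3 changed by 1.33 ± 0.16 and IFITM1 by 1.51 ± 0.38, whereas IFITM2 had 35.0 and 34.2 CPM at high dose, against 31.8 and 31.6 CPM at low dose. Its libraries did not overlap, but the log2 change was 0.13, with a 95% interval from -0.09 to 0.34 (adjusted p = 0.33 in edgeR), and 0.26 (adjusted p = 0.027 in edgeR) with library size alone as the scale. Without Coptidis low replicate 3 IFITM1 changed by 1.03 (adjusted p = 0.056 in edgeR). BST2, the tether that holds virus particles on the cell, had the smallest rise, 0.29 ± 0.12 (adjusted p = 0.033 in edgeR), and missed the threshold without any of the 4 libraries, at adjusted p from 0.06 to 0.14 in edgeR. The IFITM genes lie side by side on chromosome 11 and are close in sequence, so reads can be shared among them, as also among the IFIT and OAS genes, and their split is uncertain.

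**Figure D2:**
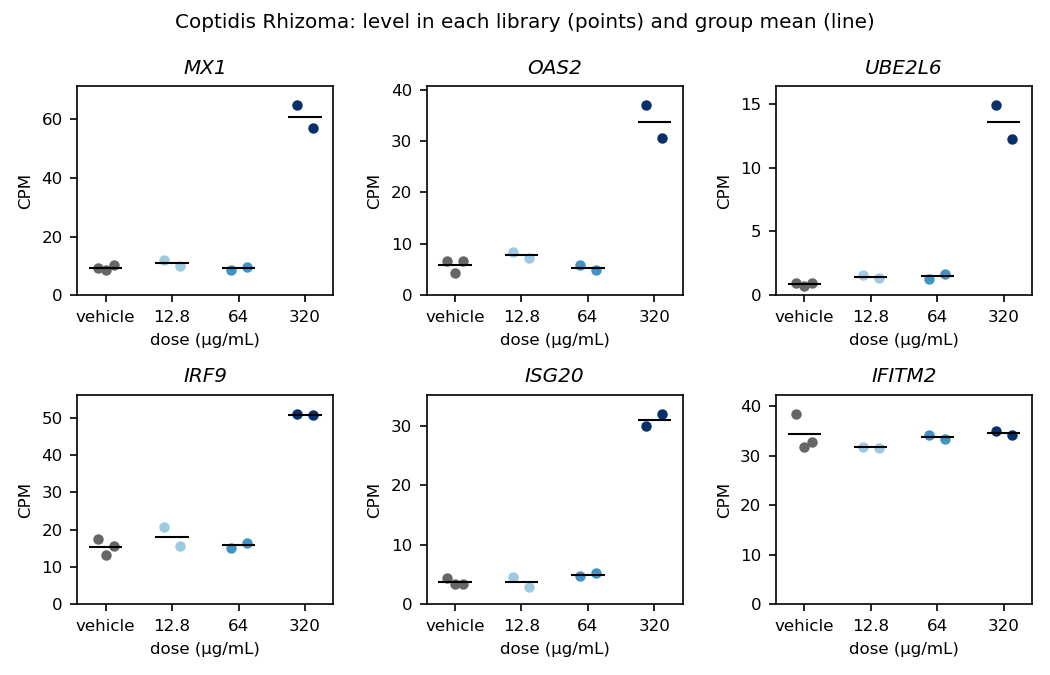
Level in CPM (linear axis from 0) of 6 genes in each library (points) with the group mean (line), from vehicle through 12.8, 64 and 320 µg/mL of Coptidis Rhizoma. In MX1, OAS2, UBE2L6, IRF9 and ISG20 the libraries at 320 µg/mL stand above all others, and in IFITM2 they lie among the vehicle libraries.

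All 5 genes for proteins that bind or cut RNA rose, by a median of 1.94. ISG20, an exonuclease that degrades single-stranded RNA, had 4.45, 3.42 and 3.38 CPM in vehicle, 4.53 and 2.93 CPM at low, 4.66 and 5.15 CPM at medium and 29.9 and 32.0 CPM at high dose. Its log2 change against low dose was 3.06 ± 0.19 (adjusted p = 1.3e-17 in edgeR). IFIT1 binds viral RNA whose cap is missing or lacks the marks of host RNA, and IFIT2 belongs to the IFIT complex. IFIT2 had 28.2 and 24.8 CPM at high dose, against 6.58 and 5.51 CPM at low dose. Its change was 2.14 ± 0.14, and IFIT3, IFIT5 and IFIT1 lay close together at 1.94 ± 0.12, 1.86 ± 0.11 and 1.85 ± 0.18.

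The 10 genes of ISG15 conjugation, ubiquitin ligases and ADP-ribosylation all rose, by a median of 1.42, and they spread from 0.49 to 3.23. UBE2L6, the conjugating enzyme for ISG15, had 0.978, 0.706 and 0.982 CPM in vehicle, 1.56 and 1.33 CPM at low, 1.26 and 1.69 CPM at medium and 14.9 and 12.2 CPM at high dose. Its log2 change against low dose was 3.23 ± 0.25 (adjusted p = 1.3e-14 in edgeR). HERC5, the ligase that completes the ISG15 pathway, had 3.98 and 3.42 CPM at high dose, against 0.622 and 0.742 CPM at low dose, a change of 2.42 ± 0.31. USP18, which removes ISG15 and also blocks the interferon receptor, changed by 1.89 ± 0.13. ISG15 itself changed by 1.26 ± 0.22, a smaller point value than those of these enzymes. TRIM25, a ubiquitin ligase that acts on RIG-I, changed by 1.51 ± 0.05 with the smallest standard error of the 43 genes in this comparison. PARP9 and DTX3L, partners that share a promoter region, changed by 0.66 ± 0.13 and 0.77 ± 0.10, and TRIM21, a cytosolic antibody receptor, by 0.49 ± 0.11.

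The 10 other effectors all rose at least 2-fold, with a median of 2.31. SAMD9L, a restraint on translation and growth, had 4.31 and 2.83 CPM at high dose, against 0.0889 and 0.313 CPM at low dose. These are 115 and 68 counts at high dose, against 2 and 8 counts at low dose, so its log2 change of 4.08 ± 0.45, the largest of the 43, rests on few low-dose reads. XAF1, a partner of the apoptosis inhibitor XIAP, had 16.1 and 12.7 CPM at high dose, against 1.69 and 1.52 CPM at low dose. Its change was 3.17 ± 0.45 (adjusted p = 1.1e-07 in edgeR). IFI44L changed by 2.66 ± 0.30, EPSTI1 by 2.63 ± 0.36 and RSAD2, which encodes viperin, by 2.62 ± 0.37, with CMPK2, the neighbour of RSAD2, at 2.01 ± 0.21. The smallest rise in this group was that of IFI6, 1.17 ± 0.27.

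Between low and medium Coptidis dose no gene of the 43 passed the threshold in edgeR, where 1.35% of all tested genes did. At an unadjusted p under 0.05 there were 4 higher and 3 lower, where 8.94% of all tested genes passed. DESeq2 called 262 of all tested genes and 0 of the 43. The median log2 change was -0.12, and the largest was that of IFI44L, lower by -1.12 ± 0.36 (adjusted p = 0.15 in edgeR). From medium to high dose 42 were higher (52.7% of all tested genes passed, 26% as higher), with a median of 1.75. Against vehicle, 42 were higher at high dose (62.9% of all tested genes passed, 30.9% as higher), 5 at medium dose (19.6%, 11.1% as higher) and 4 at low dose (6.13%, 3.83% as higher). The 5 at medium dose were IFIT2, IFIT5, UBE2L6, TRIM25 and PARP14, and the 4 at low dose STAT2, IFIT5, PARP14 and IFI44, named after their values were seen. PARP14, an enzyme that attaches single ADP-ribose units, was higher than vehicle in the low-dose groups of all 8 extracts, by 0.29 to 0.48 on the log2 scale. All these comparisons share the vehicle libraries.

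The Coptidis change was smaller in genes of higher vehicle level. Across the 43 genes Spearman's rho between the log2 change from low to high dose and the mean vehicle CPM, which carries gene length, was -0.74, a description over genes of shared libraries and not over independent replicates.

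Few transcripts of interferons themselves were counted. IFNL1, a type III interferon, had 13 and 17 counts at high dose of Coptidis, against 0 and 3 counts at low dose, 1 and 4 at medium dose and 1, 3 and 0 in vehicle. IFNB1, the type I interferon that epithelial cells make, had 5 and 6 counts at high dose, against 1 and 0 counts at low dose and 0 in each vehicle library. Neither reached 0.5 CPM in the 3 libraries needed for testing. High-dose Coptidis had only 2 libraries, so a gene that reached 0.5 CPM only there could not be tested. Of 8 interferon genes only IFNE was tested, with a log2 change of -0.03 from low to high dose.

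Genes of the pathway that are not among the 43 were read from lists of receptors and kinases, of sensing, and of restraint. Of 10 genes of receptors, kinases and signal transducers, 7 rose and 1 fell from low to high dose of Coptidis, with a median of 0.40, where 27.8% of all tested genes were higher and 28.4% lower. JAK1, the kinase shared by the type I, II and III receptors, had 156 and 168 CPM at high dose, against 62.4 and 65.2 CPM at low dose, a log2 change of 1.34 ± 0.06 (adjusted p = 4.3e-22 in edgeR). TYK2, its partner kinase at the type I and III receptors, changed by -0.71 ± 0.10 (adjusted p = 3.8e-08 in edgeR). JAK2 rose by 0.70 ± 0.16.

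Of 11 tested sensing genes 3 rose and 4 fell, near the shares of 27.8% higher and 28.4% lower over all tested genes. The RNA sensors and regulators DHX58, RIGI and TLR3 rose by 1.51 ± 0.15, 1.35 ± 0.10 and 1.33 ± 0.16. RIGI, for example, had 42.1 and 39.7 CPM at high dose, against 16.7 and 15.4 CPM at low dose. The DNA-sensing genes CGAS and STING1 changed by -0.54 ± 0.07 and -0.25 ± 0.09, both past the threshold, as did IRF5 and IKBKE at -0.38 ± 0.10 and -0.37 ± 0.13.

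Of 9 tested genes of restraint 4 rose and 1 fell, few genes to set against the shares of 27.8% and 28.4%. SAMHD1, which depletes deoxynucleotides, rose by 1.23 ± 0.07, and ADAR, the enzyme that edits double-stranded RNA, by 0.80 ± 0.08. TREX1, the exonuclease that clears cytosolic DNA, had 3.00 and 3.29 CPM at high dose, against 9.69 and 9.34 CPM at low dose, a log2 change of -1.60 ± 0.17 (adjusted p = 2.0e-10 in edgeR).

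Among 33 tested genes of a second list of interferon-induced genes, 22 rose and 5 fell, where 27.8% of all tested genes were higher and 28.4% lower, with a median of 0.47. LAMP3, a lysosomal membrane protein, had 32.3 and 36.4 CPM at high dose, against 0.178 and 0.273 CPM at low dose, or 861 and 874 counts against 4 and 7. GBP1, APOL6, DDX60L, TRIM22 and DDX60 rose by 2.24, 2.20, 1.90, 1.85 and 1.79 on the log2 scale. GBP2, a guanylate-binding protein like GBP1, changed by -1.27 ± 0.11 (adjusted p = 1.1e-12 in edgeR), and TNFSF10, the death ligand TRAIL, by -0.58 ± 0.16.

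**Figure D3:**
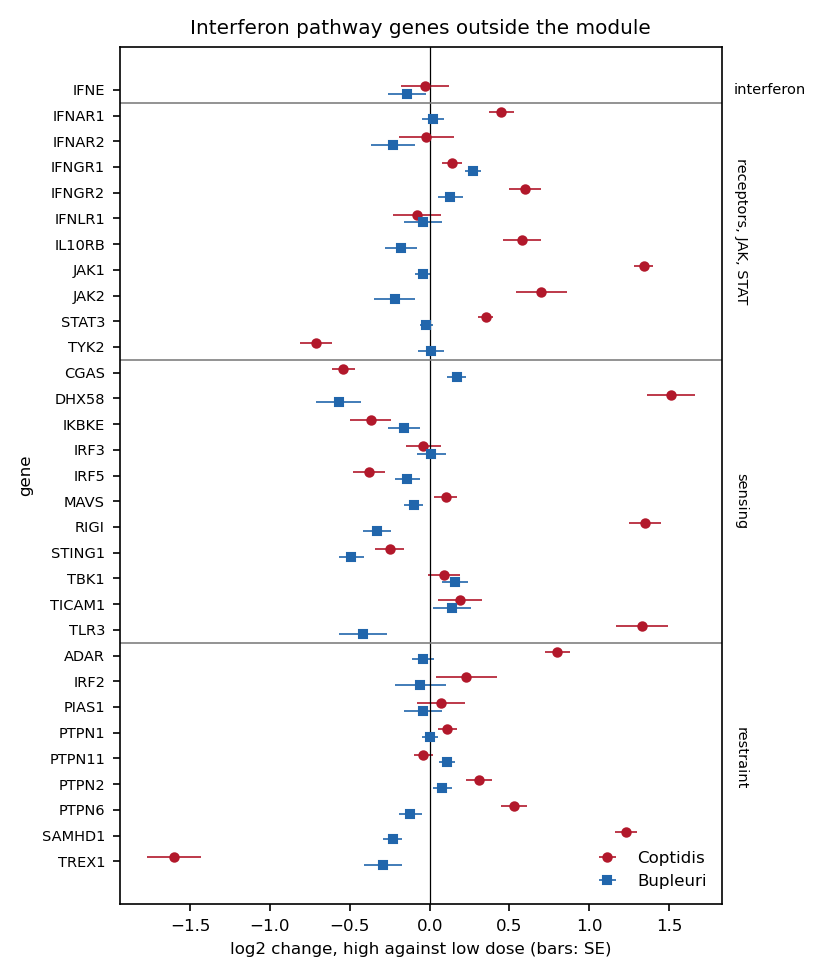
Log2 change from low to high dose (horizontal axis, bars are standard errors) of tested pathway genes that are not among the 43, for Coptidis (circles) and Bupleuri (squares). JAK1, DHX58, RIGI, TLR3 and SAMHD1 lie above 1 and TREX1 below -1 with Coptidis, and all Bupleuri values lie between -0.57 and 0.27.

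With Bupleuri Radix 18 of the 43 genes were lower at high than at low dose and 0 higher in edgeR, where 12.9% of all tested genes passed, 6.59% as lower and 6.34% as higher. The other 25 genes did not pass, and 4 of the 43 values were positive. The only gene higher at an unadjusted p under 0.05 was TRIM25. DESeq2 called 2125 of all 16022 tested genes, and of the 43 it called 18 lower and 1 higher. The median was -0.36, against -0.01 over all tested genes, and 4 genes fell at least 2-fold. In 29 of the 43 all 3 high-dose libraries lay below all 3 low-dose libraries and in 2 above, where 19% of all tested genes did each.

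XAF1 fell most, at 0.267, 0.0806 and 0.345 CPM at high dose, against 1.66, 0.517 and 1.28 CPM at low dose. These are 6, 2 and 9 counts at high dose, against 41, 11 and 35 counts at low dose, and replicate 2 was the lowest at every dose. The log2 change was -2.32 ± 0.60 (adjusted p = 0.0057 in edgeR), and without high replicate 2 or low replicate 1 it was -1.91 (adjusted p = 0.052) or -1.98 (adjusted p = 0.053). OAS2 had 6.67, 4.34 and 6.69 CPM in vehicle, 7.61, 7.18 and 6.20 CPM at low, 4.84, 5.36 and 4.64 CPM at medium and 2.93, 3.31 and 2.95 CPM at high dose. The doses did not overlap, and the change against low dose was -1.19 ± 0.20 (adjusted p = 1.7e-05 in edgeR).

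MX2 had 0.533, 0.847 and 0.805 CPM at high dose, against 1.98, 1.74 and 1.95 CPM at low dose, a log2 change of -1.36 ± 0.27. IFI44L had 0.533, 1.01 and 0.536 CPM at high dose, against 2.03, 1.46 and 1.62 CPM at low dose, a change of -1.29 ± 0.33. Neither pair of groups overlapped. HERC6, a relative of HERC5, had 6.09, 6.49 and 5.75 CPM at high dose, against 11.5, 10.8 and 9.40 CPM at low dose, and changed by -0.79 ± 0.14. IRF9 had 10.4, 8.43 and 8.39 CPM at high dose, against 17.4, 15.1 and 14.2 CPM at low dose, a change of -0.78 ± 0.13 (adjusted p = 1.5e-05 in edgeR).

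By role, 4 of 6 GTPases and membrane proteins and 5 of 10 other effectors passed the threshold as lower. So did 4 of 10 in the ISG15 and ubiquitin group, 2 of 6 sensors and 2 of 6 signalling genes. Over all tested genes 6.59% were lower, and these small groups were not tested against each other. Of the RNA-binding genes 1 of 5 passed as lower. The RNA-binding gene was IFIT1 at -0.79 ± 0.18, whereas IFIT2, IFIT3, IFIT5 and ISG20 had values from -0.26 to -0.11 that did not pass. In signalling, IRF9 and STAT2, the ISGF3 subunits, changed by -0.78 ± 0.13 and -0.33 ± 0.08, and IRF1 and IRF7 stood at 0.12 ± 0.07 and -0.02 ± 0.12. IFITM3 and BST2 changed by -0.66 ± 0.14 and -0.36 ± 0.10. MX1 and CMPK2 changed by -0.70 ± 0.13 and -0.70 ± 0.21, IFI27 by -0.76 ± 0.18, IFI44 by -0.68 ± 0.13, USP18 by -0.44 ± 0.12, PARP9 by -0.42 ± 0.11, OAS1 by -0.30 ± 0.09 and PARP14 by -0.29 ± 0.07. Without Bupleuri low replicate 1, OAS1, BST2, USP18 and CMPK2 missed the threshold. Without high replicate 2, OAS1, USP18 and CMPK2 did, without high replicate 3, USP18 and CMPK2, and without low replicate 2, CMPK2, at adjusted p from 0.053 to 0.14 in edgeR. With library size alone as the scale OAS1, STAT2 and BST2 missed it, at adjusted p from 0.087 to 0.11 in edgeR.

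**Figure D4:**
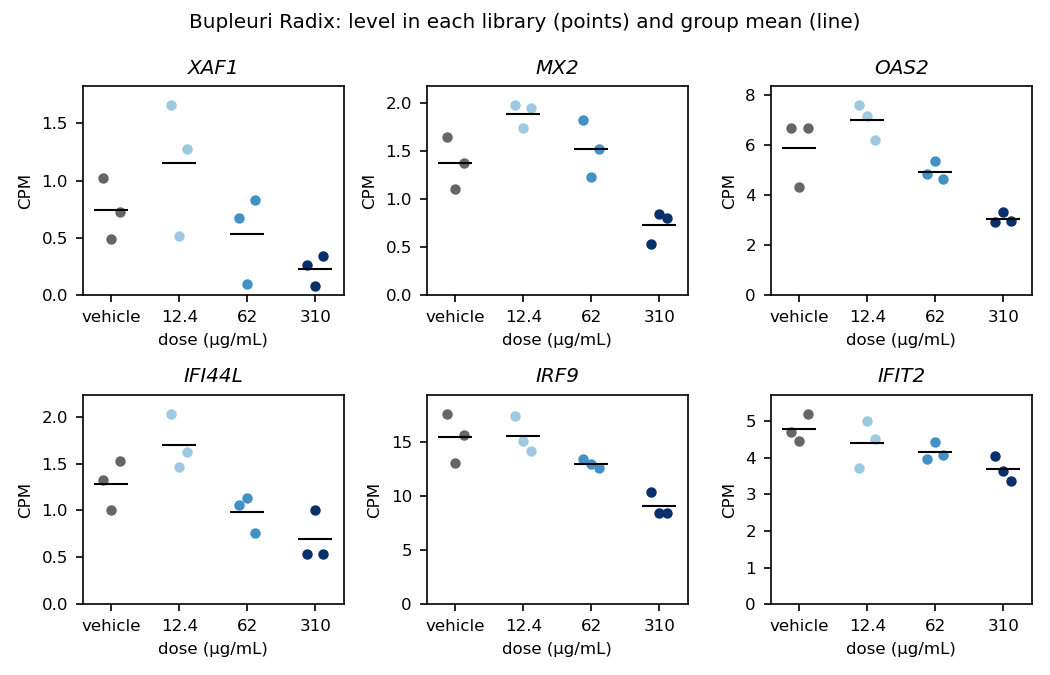
Level in CPM (linear axis from 0) of 6 genes in each library (points) with the group mean (line), from vehicle through 12.4, 62 and 310 µg/mL of Bupleuri Radix. In XAF1, MX2, OAS2, IFI44L and IRF9 the 3 libraries at 310 µg/mL lie below the 3 at 12.4 µg/mL, and in IFIT2 high- and low-dose libraries overlap.

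From low to medium dose of Bupleuri 0 of the 43 passed in edgeR, as did 0% of all tested genes. At an unadjusted p under 0.05, 7 were lower, where 1.83% of all tested genes were. DESeq2 called 2 of all tested genes and 0 of the 43. From medium to high dose 9 were lower (9.71% of all tested genes passed, 4.65% as lower). Against vehicle 19 were lower and 2 higher at high dose (27% of all tested genes passed, 12.7% as lower and 14.3% as higher), and 10 passed without vehicle replicate 1. The 2 that were higher, TRIM25 at 0.17 and SAMD9 at 0.37, were named after their values were seen. In the pathway lists 4 of 31 tested genes fell and 2 rose from low to high dose, where 6.59% of all tested genes were lower and 6.34% higher. DHX58, RIGI, STING1 and SAMHD1 changed by -0.57 ± 0.14, -0.33 ± 0.09, -0.49 ± 0.08 and -0.23 ± 0.06, and IFNGR1 and CGAS rose by 0.27 ± 0.05 and 0.17 ± 0.06. In the second list of induced genes 6 of 33 fell and 1 rose, against the same shares of 6.59% and 6.34%, with TNFSF10 at -0.81 ± 0.13 and PARP10 at -0.56 ± 0.14.

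In the other extracts few or none of the 43 passed from low to high dose, though the median was below 0 in each. Aconiti had 2 lower (2.71% of all tested genes passed, 2.23% as lower), and 1 without low replicate 1 or 3 or without high replicate 2 or 3, where IFI44 missed the threshold. OASL had 4.82, 4.17 and 3.91 CPM at high dose, against 6.72, 6.98 and 5.92 CPM at low dose, and changed by -0.61 ± 0.10 (adjusted p = 9.1e-05 in edgeR). IFI44 had 7.62, 7.04 and 5.57 CPM at high dose, against 10.1, 8.61 and 8.77 CPM at low dose, and changed by -0.45 ± 0.12 (adjusted p = 0.033 in edgeR). In both genes all high-dose libraries lay below all low-dose libraries, as in 13 of the 43 and in 12.7% of all tested genes. They lay above in 4 of the 43, where 11.6% of all tested genes did. The median of the 43 was -0.13.

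In Citri 0 genes passed in edgeR (0.137% of all tested genes did). At an unadjusted p under 0.05, 14 were lower, where 3.99% of all tested genes were. DESeq2 called 72 of all tested genes and 1 of the 43, as lower. The median in Citri was -0.19, and 42 of the 43 values were negative. IFIT2 had 3.26, 3.74 and 3.88 CPM at high dose, against 5.62, 5.38 and 4.84 CPM at low dose, and the smallest p (log2 change -0.53 ± 0.13, adjusted p = 0.071 in edgeR). IFIT1 had 4.75, 5.14 and 5.33 CPM at high dose, against 7.96, 8.20 and 7.78 CPM at low dose, with a change of -0.65 ± 0.17 (adjusted p = 0.12 in edgeR). In both genes all high-dose libraries lay below all low-dose libraries, as in 20 of the 43 and in 9.16% of all tested genes. They lay above in 0 of the 43, where 8.18% of all tested genes did. Without Zizyphi medium replicate 3, a library outside this comparison whose spread enters the shared fit, 6 of the 43 were lower.

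Yijung-tang had 0 past the threshold in edgeR and in DESeq2 (0.206% of all tested genes passed in edgeR and 54 genes in DESeq2). It had 11 lower at an unadjusted p under 0.05 (3.72% of all tested genes) and a median of -0.22. Its smallest p was that of IFIT1, at -0.68 ± 0.21 (adjusted p = 0.3 in edgeR). Banhasasim-tang, with 1 library a dose and its spread taken from the other groups, had 0 in both tools (1.73% in edgeR), 8 lower and 1 higher at an unadjusted p under 0.05 (8.88% in either direction) and a median of -0.19. Its share of mitochondrial ribosomal RNA was 10.2% at high dose, against 1.11% at low dose. Cimicifugae had 0 in both tools (0.874% of all tested genes in edgeR and 166 genes in DESeq2). It had 1 lower at an unadjusted p under 0.05 (4.36%) and a median of -0.11. Zizyphi had 0 in both tools (0% of all tested genes in edgeR and 0 genes in DESeq2). It had 4 lower at an unadjusted p under 0.05 (1.1%) and a median of -0.15. From low to medium dose of Zizyphi 6 were higher and 8 lower (31.4% of all tested genes passed, 18.7% as higher and 12.8% as lower), a comparison that holds the library that stood apart.

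Over the 7 extracts other than Coptidis, 20 of the 43 genes had a negative log2 change from low to high dose in every extract, at 2 decimals. The share of all tested genes that did so was not counted, so the 20 cannot be set against it. IRF1 and SAMD9, each with 3 negative and 4 positive values, were mixed, at most 0.14 and 0.10. Larger positive values stood beside negative ones in other genes, up to 1.43 for SAMD9L, 0.43 for IFITM2, 0.41 for USP18 and 0.38 for HERC5. OASL was below vehicle at high dose in all 7, past the threshold in each, by -0.68 in Aconiti, -0.53 in Zizyphi, -0.48 in Banhasasim-tang, -0.47 in Citri and in Yijung-tang, -0.37 in Cimicifugae and -0.34 in Bupleuri. These 7 comparisons share the vehicle libraries, and OASL was picked here after its values were seen. Against vehicle at high dose, Aconiti had 6 of the 43 higher and 1 lower (9.35% and 7.96% of all tested genes). Cimicifugae had 4 and 3 (10.3% and 7.7%) and Citri 0 and 6 (7.61% and 5.6%). Yijung-tang had 0 and 2 (4.65% and 2.98%) and Zizyphi 1 and 1 (4.38% and 2.53%). In the same order the medians were 0.11, -0.03, -0.13, -0.04 and 0.01. At low dose OASL also lay below vehicle in all 8 extracts, with log2 changes from -0.48 to -0.02 and 0 past the threshold.

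**Figure D5:**
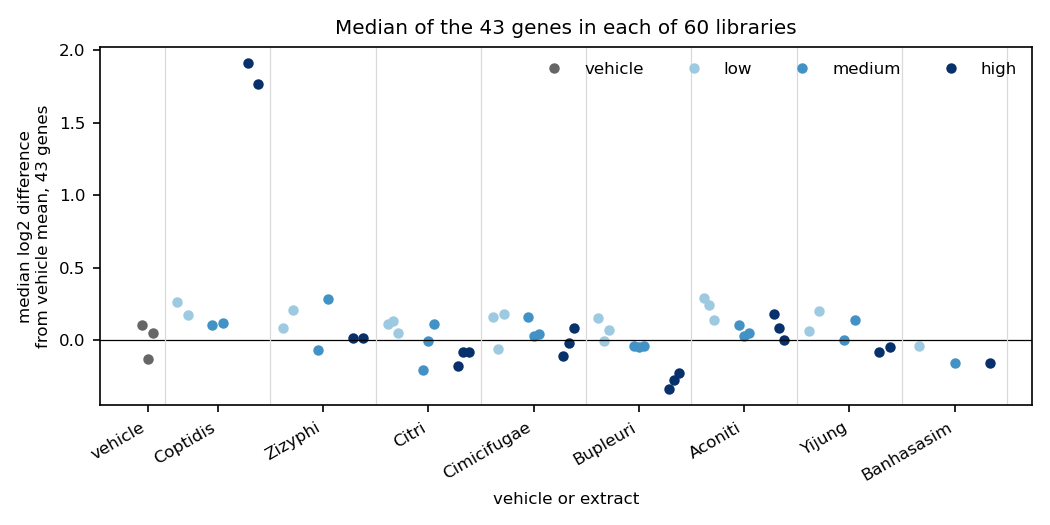
Median over the 43 genes of the log2 difference from the vehicle mean (vertical axis, with 0.5 CPM added) in each of the 60 libraries, by extract and dose. The high-dose Coptidis libraries stand at 1.77 and 1.91, and no other library exceeds 0.29 or lies below -0.34.

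The difference in dose effect was tested in the same model, as the change from low to high dose of Coptidis minus that of another extract. It passed, as higher, for 43 of the 43 genes against Bupleuri (45.5% of all tested genes passed), 42 against Cimicifugae (45.6%), 42 against Yijung-tang (43.4%), 41 against Zizyphi (42.9%), 41 against Citri (48.1%), 41 against Aconiti (46.5%) and 38 against Banhasasim-tang (33.3%). As higher alone, the shares of all tested genes were 22.6%, 22.7%, 21.4%, 21%, 23.9%, 22.9% and 16.1% in the same order. The Banhasasim-tang contrast has 1 library a dose on its side, with its spread taken from the other groups. Of the 43 genes 38 passed against all 7 extracts, and the rest were BST2, IFI35, IFI6, IFITM2 and SAMD9L, and 40 passed against the 6 extracts other than Banhasasim-tang. These contrasts share the Coptidis libraries, and only that with Zizyphi lies within a set. Against Bupleuri the difference was 5.48 ± 0.74 for XAF1, 5.07 ± 0.68 for SAMD9L, 4.52 ± 0.37 for MX2 and 0.36 ± 0.14 for IFITM2 (adjusted p = 0.033 in edgeR).

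Within the set of Bupleuri and Aconiti the dose effect, Bupleuri minus Aconiti, differed for 5 genes (8.52% of all tested genes passed). It was lower for STAT2, IRF9, MX1 and USP18, by -0.41 ± 0.11, -0.56 ± 0.18, -0.60 ± 0.18 and -0.54 ± 0.16, and higher for OASL, by 0.52 ± 0.15. Between Citri and Cimicifugae 0 of the 43 differed in edgeR and in DESeq2, with 1 at an unadjusted p under 0.05. Of all tested genes 0.2% differed in edgeR and 47 genes in DESeq2. Between Banhasasim-tang and Yijung-tang 0 differed in both (0.462%), with 2 at an unadjusted p under 0.05. Across the 43 genes Spearman's rho between the Coptidis and the Bupleuri change, which share no libraries, was -0.35, a description with no test. With the vehicle level of the genes, rho was -0.74 for the Coptidis change and 0.48 for the Bupleuri change. The part of that level in the -0.35 was not tested.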

How the data were processed

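RNA of HT29 cells was sequenced in 60 libraries of 25 groups, which were taken from the labels. Per the labels' protocols, 1 µg of RNA with a RIN above 7 entered MGIEasy directional libraries read as 100 bp paired ends. Per the submitters' processing notes, the tools were RSEM 1.3.3, STAR 2.7.3a, Trim Galore 0.6.5 and FastQC 0.11.9 and the build GRCh38, with an annotation that was not given in the sources used here. What the authors deposited are expected counts of each gene without depth scaling, and 210 of the 270 columns belong to samples not analysed here. Of the values used 91% were whole, and rounding moved a library total by at most 0.00022%.

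The 16022 genes at 0.5 CPM or more in 3 or more libraries were tested in edgeR 4.0.16 (R 4.3.3). After TMM scaling, all 60 libraries entered a quasi-likelihood model with a mean for each group. It had 35 residual degrees of freedom and a biological coefficient of variation of 7.83%. P-values were adjusted by Benjamini and Hochberg over all tested genes of a comparison, with a threshold of 0.05. A standard error is the absolute change divided by the root of F. CPM values use the TMM-scaled library size. Floors cover counting error only. DESeq2 1.42.0, other scalings and filters, the compared groups alone and libraries left out were tried as alternatives.

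All 43 genes could be named. For high against low dose, the 3 largest changes past the threshold in each role group were taken first, with library values for up to 12 genes in Coptidis and 6 in another extract. Of the other lists, every pathway gene past the threshold and at least 2-fold, and otherwise the smallest p, were taken. The members, lists, motifs and comparisons were chosen with earlier results of these data known. Some genes of the pathway and marker lists are not reported here. A high- and a low-dose library of an extract that share a replicate number were compared, in 18 pairs. Of these, 6 deviated together with a correlation over 0.1 (range -0.03 to 0.19), all in Citri, Cimicifugae and Bupleuri. With 2 libraries a dose, both pairs of an extract give the same value by construction, so the 18 are not separate checks. The numbers were not treated as pairing samples in the main fit. Sequences come from RefSeq promoter windows on GRCh38.p14.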

Additional observations from a re-analysis of the deposited data

Results flagged for a closer look

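The change from low to high dose differed between extracts in a test of the difference itself. For Coptidis minus another extract, 43 of the 43 genes passed against Bupleuri, 42 against Cimicifugae, 42 against Yijung-tang, 41 against Zizyphi, 41 against Citri, 41 against Aconiti and 38 against Banhasasim-tang, each as higher in edgeR. Of all tested genes 33.3% to 48.1% passed in these Coptidis contrasts, 16.1% to 23.9% as higher. For Bupleuri minus Aconiti, 5 of the 43 passed, 1 as higher and 4 as lower. In that contrast 8.52% of all tested genes passed, 4.59% as higher and 3.93% as lower, and 5 genes are few to set against these shares. The Coptidis contrasts share the Coptidis libraries. The Banhasasim-tang contrast rests on 1 library a dose. The low and medium doses of Coptidis stood apart in their share of mitochondrial ribosomal RNA, at 9.79% to 10.5% and 6.26% to 6.44%, as did the high dose of Banhasasim-tang at 10.2%, and its part in these differences was not tested.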

How the results depend on the processing

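Counts of the 43 genes past the threshold from low to high dose were 42 for Coptidis and 18 for Bupleuri. They ran from 36 to 42 for Coptidis, the lowest of 37 genes tested at 2 CPM in 3 libraries, and from 18 to 26 for Bupleuri under other size factors, filters, fits and DESeq2. Leaving out 1 library gave 40 to 41 for Coptidis, 13 to 18 for Bupleuri, 1 to 2 for Aconiti, 41 to 42 for Coptidis against vehicle, 10 to 21 for Bupleuri against vehicle, 42 to 43 for the difference of the Coptidis and Bupleuri dose effects, and 0 for Zizyphi, Citri, Cimicifugae and Yijung-tang. Without a filter on low counts Citri had 1, Aconiti 6 and Yijung-tang 2. Without Zizyphi medium replicate 3 Citri had 6, Aconiti 5, Yijung-tang 1 and Banhasasim-tang 2. With the compared groups fitted alone Citri had 3, Aconiti 7 and Yijung-tang 10. With library size alone Aconiti and Banhasasim-tang had 1 each, and with DESeq2 Citri had 1. The causes were not tested, and calls over all tested genes were counted only for the main fit and DESeq2. Under the other settings a gain among the 43 can thus not be set against one over all genes. Without Zizyphi medium replicate 3 Bupleuri had 1 higher beside 25 lower, and Banhasasim-tang 1 in each direction. Of the 43 genes in Coptidis and in Bupleuri, OASL and IFI44 in Aconiti, IFIT1 and IFIT2 in Citri and IFIT1 in Yijung-tang, 3 Bupleuri values that did not pass changed sign. Without 1 library IRF7 ran from -0.10 to 0.04, ISG20 from -0.28 to 0.03 and SAMD9 from -0.03 to 0.12, and SAMD9 was -0.02 with library size alone. With the replicate number as a block, Coptidis had 42, Bupleuri 19, Aconiti 2, and the others 0, and the difference of the Coptidis and Bupleuri dose effects 43. Leaving out MT-RNR1 and MT-RNR2 was chosen after seeing the data. For Banhasasim-tang, leaving out a library or fitting its groups alone was not possible with 1 library a dose. Depth limits SAMD9L and, with Bupleuri, XAF1, which had as few as 2 counts in a library.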

Other observations

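Several of the 43 genes are neighbours on a chromosome, and some neighbours had unlike point values from low to high dose of Coptidis. Others lay closer together on the log2 scale, such as PARP9 and DTX3L at 0.66 and 0.77. So did IFIT1, IFIT5 and IFIT3, at 1.85, 1.86 and 1.94. On chromosome 1 IFI44L was 6.30-fold and IFI44 2.46-fold higher at high dose. On the log2 scale, SAMD9L changed by 4.08 ± 0.45 and its neighbour SAMD9 on chromosome 7 by 1.78 ± 0.15. On chromosome 4 HERC5 changed by 2.42 ± 0.31 and HERC6 by 1.74 ± 0.15, whereas with Bupleuri HERC6 changed by -0.79 ± 0.14 and HERC5 by 0.17 ± 0.32. On chromosome 12 OAS2, OAS1 and OAS3 changed by 2.13 ± 0.20, 1.75 ± 0.11 and 1.34 ± 0.10 with Coptidis and by -1.19 ± 0.20, -0.30 ± 0.09 and -0.22 ± 0.08 with Bupleuri. The differences between neighbours were not tested, and the pairs were picked for their position after the values were seen.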
